A study of Mus musculus with 11 samples.

Results

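Open chromatin was read at 5 genes whose transcription is switched on by neuronal activity and whose products act at synapses or outside the cell: Arc, Homer1, Nptx2, Ptgs2 and Inhba. The members were the peaks within 50 kb of a given transcription start of each gene in build mm9 (Arc chromosome 15 at 74.503 Mb, Homer1 chromosome 13 at 94.074 Mb, Nptx2 chromosome 5 at 145.308 Mb, Ptgs2 chromosome 1 at 151.947 Mb, Inhba chromosome 13 at 16.106 Mb). These starts are given to the nearest kb, so distances are approximate to that degree. Of 497658 peaks on chromosomes 1 to 19 and X, 198 lay in these 5 windows of 100 kb. Merged over libraries, they formed 45 of 128823 regions.

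The peaks come from ATAC-seq, in which a transposase inserts adapters into accessible DNA, of dentate gyrus from C57BL/6 mice 8 weeks old. Each library came from 1 mouse, and every mouse had received adeno-associated virus (AAV) carrying a short hairpin RNA, either the control (shRNA-Ctrl) or the c-Fos hairpin (shRNA-cFos). c-Fos is a subunit of the activity-induced transcription factor AP-1. The states E0 and E1 are not spelled out in the labels of this study of neuronal activity, though the deposited E0 lists are named sham. With shRNA-Ctrl there were 3 libraries at E0 and 3 at E1, and with shRNA-cFos 3 at E0 and 2 at E1. The labels do not say which promoter drove the shRNA or what share of cells took up the virus, the lists do not show how far c-Fos was reduced, and the dentate gyrus label was not checked against marker genes. In bulk tissue, more cells with an open site and a more open site in each cell cannot be told apart.

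Activity-regulated genes fall into transcription factors, such as c-Fos itself, and effectors, which change the synapse directly. In granule neurons of the dentate gyrus the effectors studied here are known for rapid induction after strong stimulation. Arc drives removal of AMPA-type glutamate receptors from the synapse, and Homer1 makes a scaffold of the postsynaptic density whose short, activity-induced form uncouples that scaffold. Nptx2 (Narp) is a secreted pentraxin that gathers AMPA receptors at excitatory synapses on interneurons. Ptgs2 (COX-2) is the inducible enzyme of prostaglandin synthesis, and Inhba encodes the subunit of activin A, a secreted TGF-beta family ligand.

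Lists held between 25145 and 78349 peaks. The longest were shRNA-Ctrl E1 replicates 1 and 3 (78349 and 75908) and shRNA-cFos E0 replicate 2 (74432). The number of peaks in a window depends on the length of its list, so the lists were read as deposited and with every list cut to its 25145 top-scoring peaks (equal length). A score percentile also depends on the length of its list. The 2 longest lists are also the only 2 whose deposited names lack a word that the other 9 carry, of unstated meaning.

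**Figure D1:**
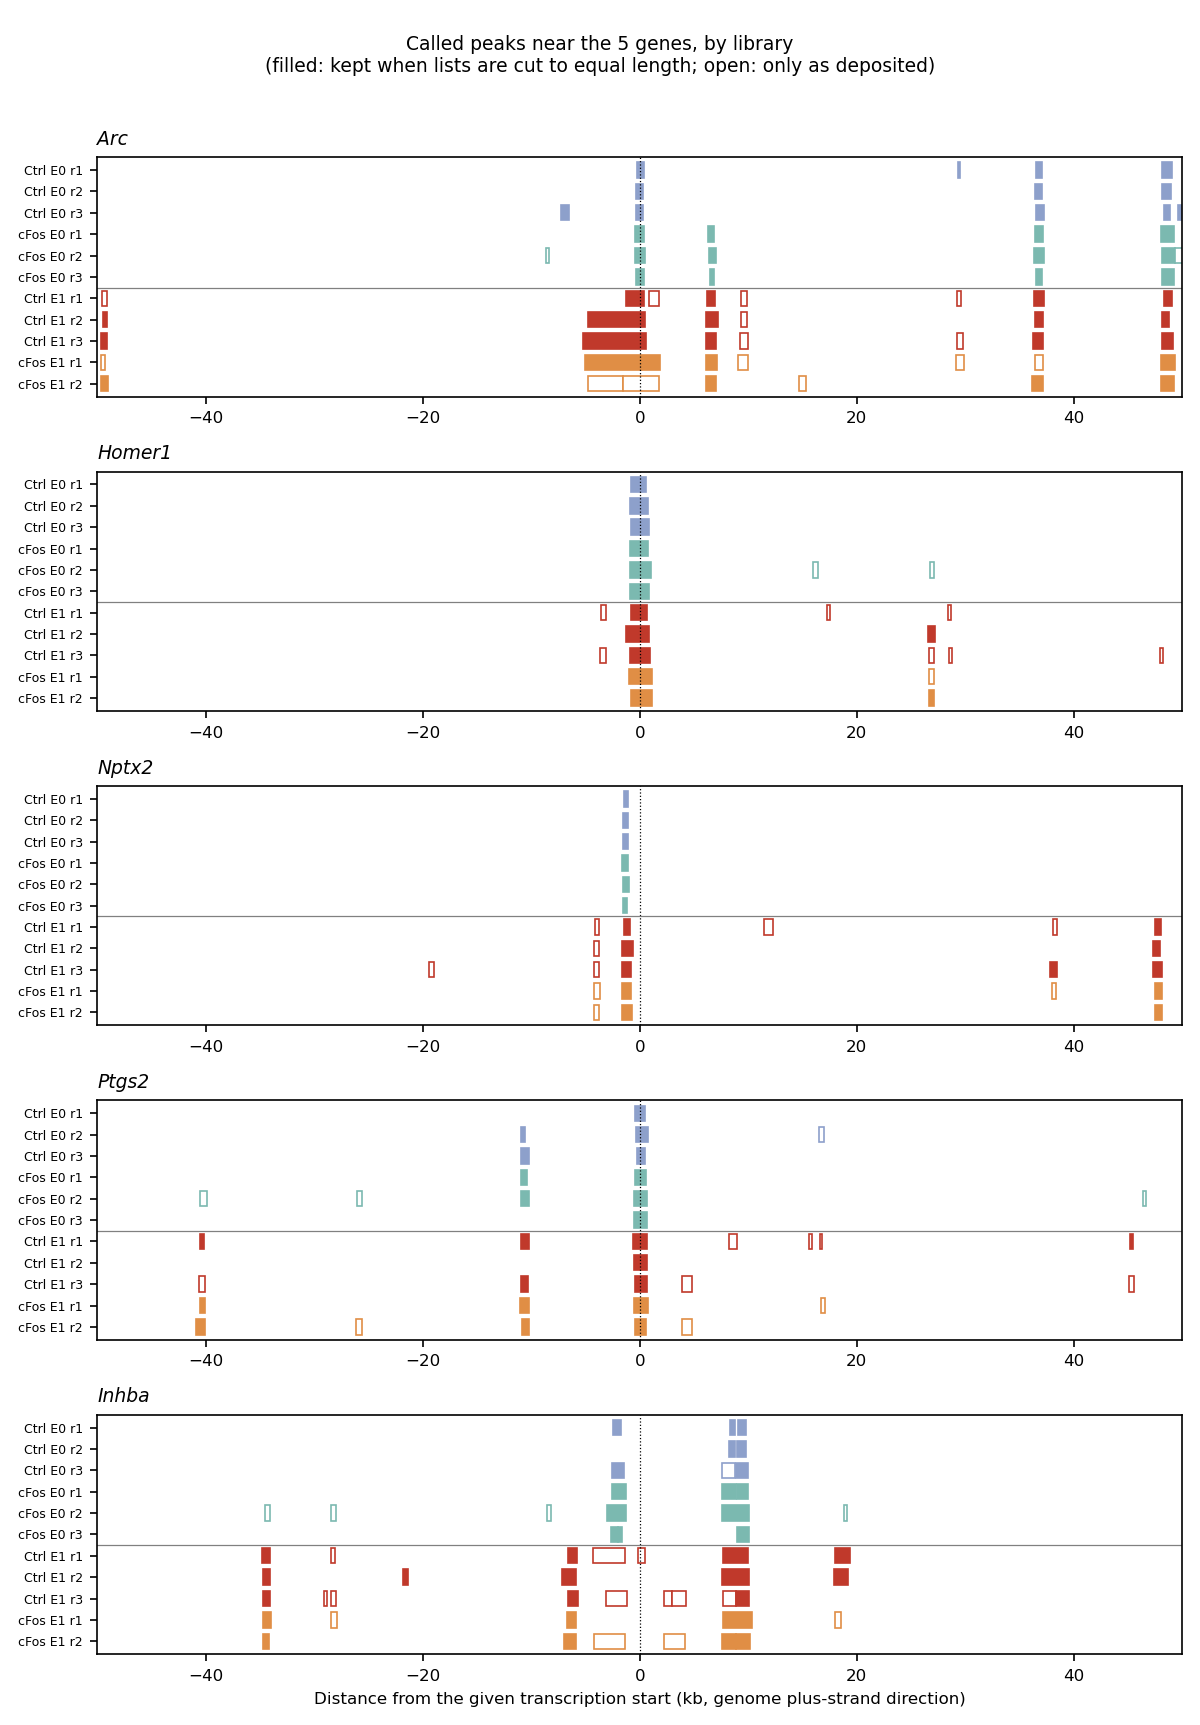
Peaks of the 11 libraries (rows, grouped by shRNA and state, r is the replicate) within 50 kb of each start (x axis, kb, plus-strand direction, 0 is the given start). Filled boxes remain at equal list length and open boxes do not. The peak at Homer1 and Ptgs2 recurs in 11 of 11 libraries, while boxes at 47.3 to 48.1 kb from Nptx2 and at -7.2 to -5.7 kb from Inhba stand in the 5 E1 rows alone.

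The first question was whether each gene's start was open in every mouse. As deposited, a peak lay within 1 kb of the given start in 11 of 11 libraries at Arc, Homer1 and Ptgs2, in both states and with both shRNAs. At Nptx2 it did so in 5 libraries, all E1, and at Inhba in 1, which made 39 of 55 pairs of gene and library. At equal length Arc had such a peak in 10 of 11 libraries and Inhba in 0, which made 37 of 55. The low count at Nptx2 came from the edge of the 1 kb limit. One region, at -1.7 to -0.6 kb (chromosome 5, 145306318 to 145307389), was called in all 11 libraries, and within 2 kb of the start Nptx2 had a peak in 11 of 11. In all, 7 of 45 regions (15.6%) were called in all 11 libraries, against 9.16% of all regions, and 15 of 45 (33.3%) in 1 library only, against 37.9%.

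The Homer1 start carried the most prominent of these peaks. Its scores were 657.1, 563.1 and 644.1 in shRNA-Ctrl E0, then 1018, 516.0 and 1315 in shRNA-Ctrl E1, 869.2, 1079 and 515.0 in shRNA-cFos E0, and 880.2 and 974.2 in shRNA-cFos E1. The score is the peak caller's own, on an unstated scale, and serves here only to rank peaks within a list. In lists of equal length the Homer1 peak ranked between percentile 96.6 and 99.3 in every library, with E0 and E1 overlapping. Its rank differed by 0.622 percentile points between E1 and E0 (two-sided exact permutation p = 0.3, labels for E0 and E1 permuted within each shRNA), and by 0.937 points as deposited (p = 0.125).

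At Ptgs2 the start peak also recurred at a high rank. Equal-length percentiles were 84.3, 84.9 and 64.7 in shRNA-Ctrl E0, then 86.7, 91.0 and 83.2 in shRNA-Ctrl E1, 76.3, 61.6 and 80.2 in shRNA-cFos E0, and 80.5 and 76.0 in shRNA-cFos E1. The groups overlapped, and E1 lay 7.25 points above E0 (exact permutation p = 0.215). In the lists as deposited the Ptgs2 start ranked higher at E1, by 8.97 points (exact permutation p = 0.015, adjusted p = 0.352 over 128823 regions). There it stood at 95.7, 93.6 and 94.4 in shRNA-Ctrl E1 and 89.8 and 85.1 in shRNA-cFos E1, against 69.9 to 87.0 in E0. A higher percentile at E1 at an unadjusted p under 0.05 was found for 7.75% of regions as deposited. The Nptx2 region at -1.7 to -0.6 kb ranked lower, between percentile 8.89 and 70.4 at equal length, again with overlapping groups (difference 1.29 points, exact permutation p = 0.905). As deposited its rank was 15.4 points higher at E1 (exact permutation p = 0.04, adjusted p = 0.528).

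Inhba had no recurring peak within 1 kb of the given start. Within 2 kb it had a peak in 8 of 11 libraries as deposited (5 E0 and 3 E1). At equal length 5 libraries had one there, all E0. The Inhba region called in all 11 libraries lay at 7.5 to 10.4 kb (chromosome 13, 16113539 to 16116360). In GRCm38, a later build, the Inhba start in RefSeq's promoter table lies 7595 bp inside the gene record, so the record begins elsewhere. Which start the given mm9 position stands for was not tested. At equal length this region ranked at percentiles 72.3, 85.8 and 68.0 in shRNA-Ctrl E0 and 72.7, 88.2 and 75.4 in shRNA-cFos E0. It ranked at 43.0, 80.1 and 7.03 in shRNA-Ctrl E1 and at 47.5 and 40.6 in shRNA-cFos E1. E1 ranks were lower by 33.4 points on average, with shRNA-Ctrl E1 replicate 2 inside the E0 range (exact permutation p = 0.02, adjusted p = 0.257 over 59298 regions). A lower percentile at an unadjusted p under 0.05 was found for 3.76% of regions. This fall was not seen in the lists as deposited, where mean percentiles were 77.5 at E0 and 78.9 at E1 with shRNA-Ctrl and 84.5 and 67.9 with shRNA-cFos (difference -7.58 points, exact permutation p = 0.27). The length covered there was 689.4 bp greater at E1 as deposited (exact permutation p = 0.04, adjusted p = 0.534).

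Promoter sequences are shown for the members that RefSeq's promoter table holds. The given starts of Homer1 and Ptgs2 had a peak in every library. For Homer1 the table lists a first and a second start, and for Inhba a single start. No library had a peak between 1.1 and 16.0 kb from the given Homer1 start. Which of the listed Homer1 starts the given position stands for was not tested. The table, of build GRCm38.p6, matched 3 of 5 genes, and not Arc and Nptx2. Each line gives the 250 bases before a start, plus strand, 5′ to 3′, with capitals for matches to the motifs searched. Positions are chr13:93303507-93303756 and chr13:93307784-93308033 for the first and second Homer1 start, chr1:150099781-150100030 for Ptgs2 and chr13:16011601-16011850 for Inhba.
Homer1 start 1: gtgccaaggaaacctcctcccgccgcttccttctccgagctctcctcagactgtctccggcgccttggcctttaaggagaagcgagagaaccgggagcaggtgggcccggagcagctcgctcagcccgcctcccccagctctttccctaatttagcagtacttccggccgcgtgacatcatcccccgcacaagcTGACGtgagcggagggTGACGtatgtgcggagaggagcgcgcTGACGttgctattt
Homer1 start 2: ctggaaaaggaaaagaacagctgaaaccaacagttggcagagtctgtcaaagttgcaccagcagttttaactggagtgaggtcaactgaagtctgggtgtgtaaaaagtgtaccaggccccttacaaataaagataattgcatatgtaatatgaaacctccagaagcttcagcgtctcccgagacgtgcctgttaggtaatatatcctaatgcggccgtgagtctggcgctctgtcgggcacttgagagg
Ptgs2: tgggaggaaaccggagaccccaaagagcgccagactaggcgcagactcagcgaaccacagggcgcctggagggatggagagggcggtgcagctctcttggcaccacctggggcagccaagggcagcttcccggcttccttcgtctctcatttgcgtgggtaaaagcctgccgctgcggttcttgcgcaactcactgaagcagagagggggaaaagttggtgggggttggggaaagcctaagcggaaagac
Inhba: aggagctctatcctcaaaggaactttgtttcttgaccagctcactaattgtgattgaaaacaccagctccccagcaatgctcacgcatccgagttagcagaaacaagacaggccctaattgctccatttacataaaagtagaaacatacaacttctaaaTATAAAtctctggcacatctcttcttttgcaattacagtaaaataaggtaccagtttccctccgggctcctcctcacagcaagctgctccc

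Searched on both strands of the 300-base entries (250 before and 50 after the start) were the cAMP response element TGACGTCA, its first 5 letters TGACG (the core), the AP-1 motif TGANTCA, the TATA box TATAAA, and the CArG box bound by SRF. The full element contains the core. The first Homer1 start had 3 cores, beginning at -56, -40 and -14 bases from the start. Ptgs2 had 1 core, on the reverse strand at bases 13 to 17 after the start and so outside the run shown. Inhba had 1 TATA box at -91 to -86, and the second Homer1 start had no match to any of the 5 motifs. Of 32851 promoters in the table, 20.8% held the core, 1.79% the full element, 7.81% the AP-1 motif, 13.6% the TATA box and 1.63% the CArG box. The first Homer1 start had 63% G and C and 26 CpG dinucleotides, against 44.7% and 7 at the second (medians over all promoters: 52.7% and 7). A match is a description of letters and not of binding.

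The main comparison asks how chromatin around these effectors differs between E1 and E0. At E1, peaks on average covered more of the windows of all 5 genes at equal list length, most clearly at Nptx2 and Arc. Cutting a list to equal length sets its number of peaks and not their widths. Whether covered length then still depended on the original list length was not tested. Several regions away from the given starts were called at E1 alone. As deposited, peak numbers rose at Arc, Nptx2 and Inhba. In the Nptx2 window every E1 library lay above every E0 library in peak number and in covered length, with both list versions.

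The Nptx2 window held 1 peak in each of the 6 E0 libraries. It held 5, 3 and 5 in shRNA-Ctrl E1 and 4 and 3 in shRNA-cFos E1. E1 was higher by 2.92 peaks, averaged over both shRNAs (exact permutation p = 0.005, the smallest that 200 arrangements allow). At equal length the 6 E0 libraries again held 1 peak each, and E1 held 2, 2 and 3 with shRNA-Ctrl and 2 and 2 with shRNA-cFos (difference 1.17, exact permutation p = 0.005). The longest E0 list, shRNA-cFos E0 replicate 2, thus had no more peaks at Nptx2 than the shortest.

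The Arc window held 4, 3 and 5 peaks in shRNA-Ctrl E0, 4, 6 and 4 in shRNA-cFos E0, 8, 6 and 7 in shRNA-Ctrl E1, and 7 and 7 in shRNA-cFos E1. The states met at 6 peaks, and E1 was higher by 2.67 (exact permutation p = 0.01). This rise in number was gone at equal length (0.0833 peaks, exact permutation p = 1), where the gain at Arc was one of covered length. It also lost its call without the 3 longest lists (2.5 peaks, exact permutation p = 0.0833).

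With shRNA-Ctrl the Inhba window held 3, 2 and 3 peaks at E0 and 7, 5 and 9 at E1. With shRNA-cFos it held 3, 6 and 3 at E0 and 5 and 6 at E1, where the states overlapped through the long list of E0 replicate 2. E1 was higher by 2.92 peaks (exact permutation p = 0.02), and by 1.25 at equal length (exact permutation p = 0.06). The call was also lost without any 1 of shRNA-Ctrl E1 replicates 1 and 3, shRNA-cFos E0 replicates 1 and 3 and both shRNA-cFos E1 libraries (exact permutation p from 0.05 to 0.075).

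Peak number at Homer1 and Ptgs2 did not pass the threshold. Homer1 had 1 peak in 5 of 6 E0 libraries and 3 in shRNA-cFos E0 replicate 2, against 4, 2 and 5 in shRNA-Ctrl E1 and 2 and 2 in shRNA-cFos E1 (difference 1.5, exact permutation p = 0.095). Without shRNA-cFos E0 replicate 2 the difference was 1.83 (exact permutation p = 0.0167), and without the 3 longest lists it was 1 (exact permutation p = 0.0417). At Ptgs2 the numbers were 1, 3 and 2 in shRNA-Ctrl E0, then 7, 1 and 5 in shRNA-Ctrl E1, 2, 5 and 1 in shRNA-cFos E0, and 4 and 5 in shRNA-cFos E1. These groups overlapped widely (difference 2.08, exact permutation p = 0.125).

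Thus 3 of 5 windows had more peaks at E1 at an exact p under 0.05, where 7.24% of 23259 tiles of 100 kb over the genome did. At equal length 1 of 5 windows did, against 4.82% of 19983 tiles. Every E1 library above every E0 library, as at Nptx2, was found in 0.568% of tiles as deposited and 0.921% at equal length. Tiles, here and below, were all those with a peak in any list, while the windows were centred on gene starts. The shares are therefore not those of like windows. No window passed after Benjamini-Hochberg adjustment over the tiles, the lowest adjusted permutation p being 0.494 as deposited and 0.391 at equal length, and no tile did. Without the 2 lists that lack the added word, Nptx2 kept its call (2.25 peaks, exact permutation p = 0.025), while Arc had 2.17 (p = 0.05) and Inhba 1.92 (p = 0.1).

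**Figure D2:**
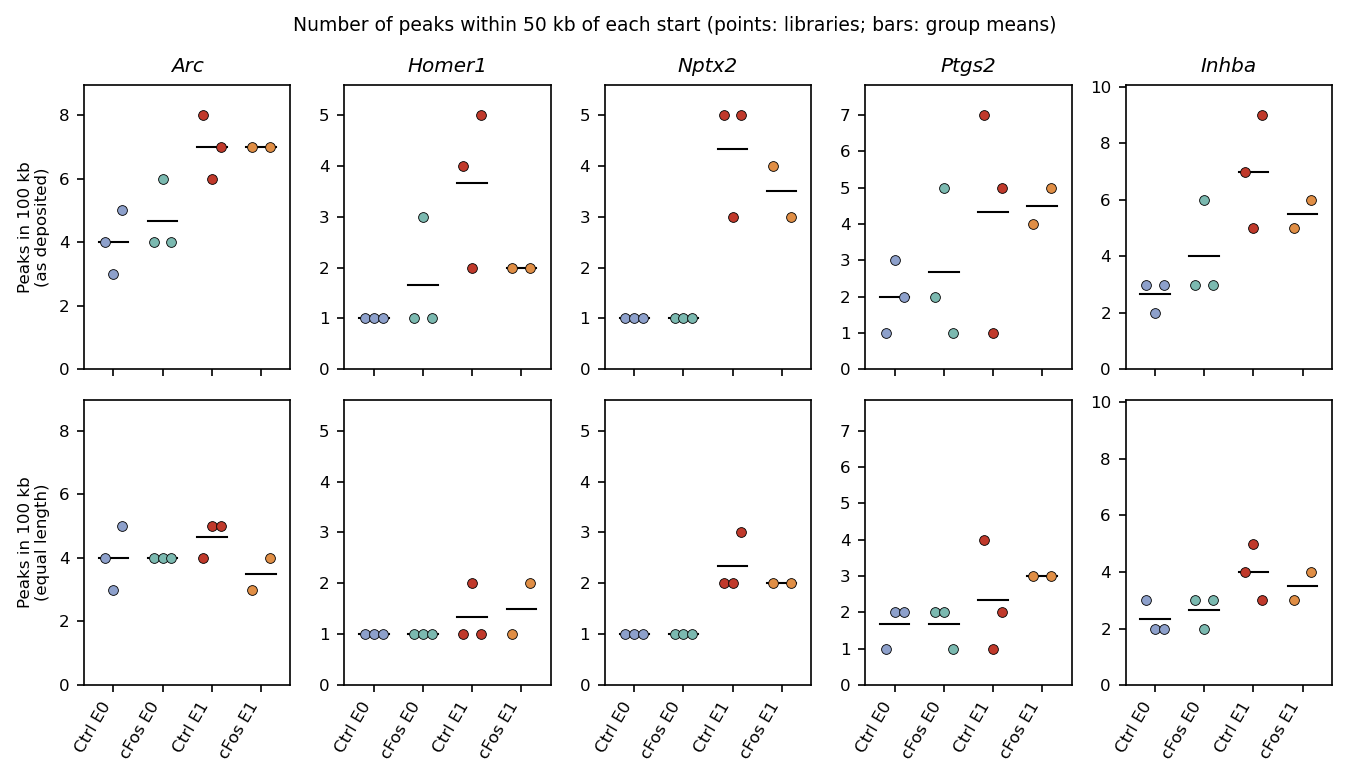
Number of peaks in each 100 kb window (y axis) by group (x axis) for the lists as deposited (top) and at equal length (bottom). Points are libraries and bars are group means. Nptx2 has 1 peak in each E0 library and 3 to 5 in E1 libraries as deposited.

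Covered length separated the states more than peak number did. Peaks covered 2320, 1995 and 3022 bp of the Arc window in shRNA-Ctrl E0 and 3238, 4614 and 2647 bp in shRNA-cFos E0. They covered 6295, 8705 and 10574 bp in shRNA-Ctrl E1 and 12002 and 11014 bp in shRNA-cFos E1. Every E1 library thus exceeded every E0 library, with means of 2446 ± 524.9 bp (SD, n = 3) and 8525 ± 2145 bp (n = 3) in shRNA-Ctrl E0 and E1 (difference over both shRNAs 7044 bp, exact permutation p = 0.005). At equal length the lowest E1 library (3846 bp) still lay above the highest E0 library (3677 bp), and the difference was 4033 bp (exact permutation p = 0.005).

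At Nptx2 peaks covered 372, 438 and 525 bp in shRNA-Ctrl E0 and 568, 531 and 345 bp in shRNA-cFos E0, against 2570, 2139 and 3138 bp in shRNA-Ctrl E1 and 2471 and 2031 bp in shRNA-cFos E1 (difference 1970 bp, exact permutation p = 0.005). At equal length E1 libraries covered 1105 to 2229 bp, still above all E0 libraries (difference 1104 bp, exact permutation p = 0.005). Inhba gained 4543 bp as deposited (exact permutation p = 0.015) and 1884 bp at equal length (p = 0.02). Homer1 gained 911.7 bp (exact permutation p = 0.02) and 498.8 bp (p = 0.03). At Ptgs2 the difference of 1430 bp as deposited did not pass (exact permutation p = 0.065), while that of 792.8 bp at equal length did (p = 0.035). For these last 3 genes the states overlapped at equal length. The highest E0 library at each was shRNA-cFos E0 replicate 2, the longest E0 list, with 1911 bp at Homer1, 1987 bp at Ptgs2 and 4249 bp at Inhba. This library was also the highest of E0 at Arc (3677 bp), but not at Nptx2 (531 bp). E1 libraries below them covered 1533 and 1798 bp at Homer1, 1200 and 1796 bp at Ptgs2, and 2783 and 4244 bp at Inhba.

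By covered length, 4 of 5 windows passed as deposited, where 11.6% of tiles did, and 5 of 5 at equal length, where 11.9% did. Complete separation of E1 above E0 was found at Arc and Nptx2 both ways, against 1.59% of tiles as deposited and 3.15% at equal length. Adjusted over the tiles, the permutation p was 0.299 or higher as deposited and 0.148 or higher at equal length, so none passed.

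**Figure D3:**
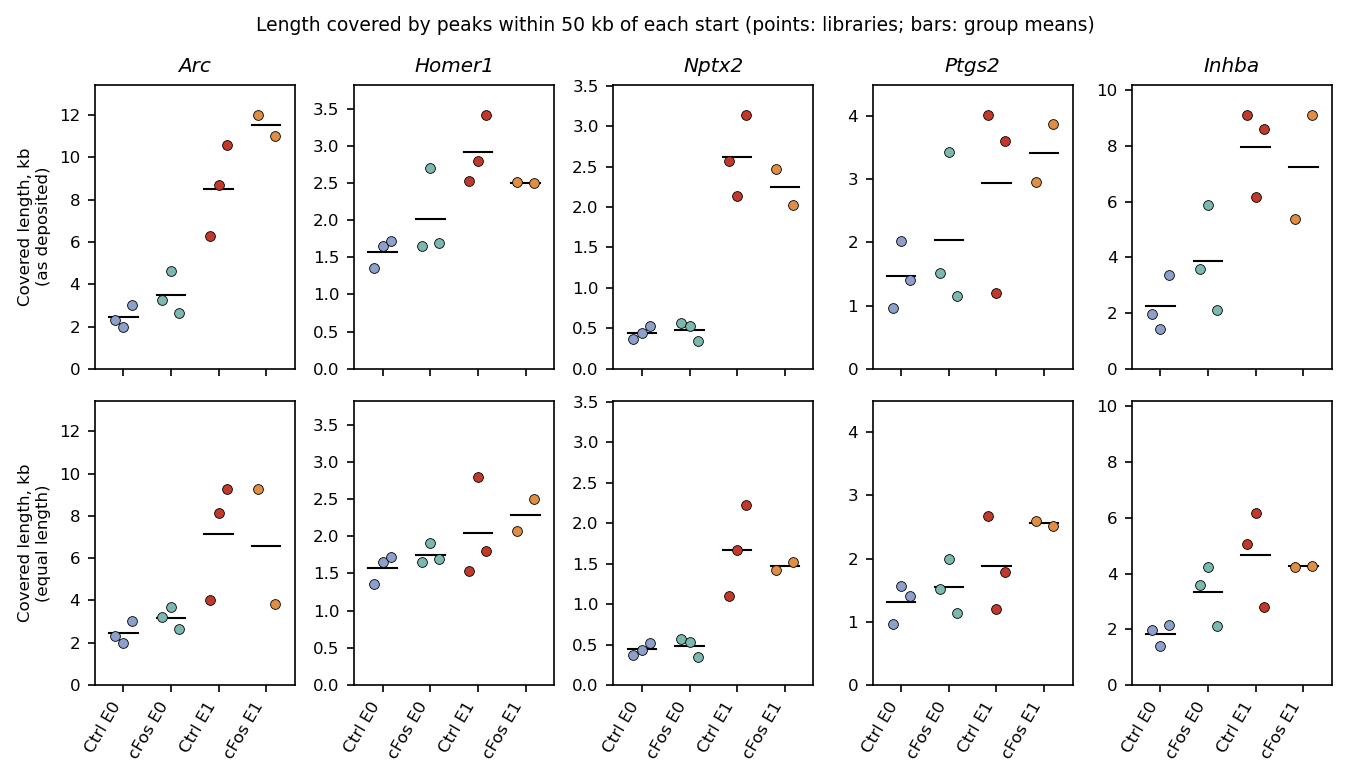
Length covered by peaks in each window (y axis, kb) by group (x axis), as deposited (top) and at equal length (bottom). Points are libraries and bars are group means. In the Arc panels the E1 points lie above 6 kb as deposited and reach down to 3846 bp at equal length, above the E0 points in each case.

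Of the 7044 bp gained at Arc, 4933 bp lay in the region at its start. Arc lies on the minus strand, so its body extends to the left of the start on the plus-strand axis, and its GRCm38 gene record spans 3490 bp. In the 6 E0 libraries the start peak was compact, lying between -0.42 and 0.50 kb. At E1 it reached from -4.73 to 0.53 kb and from -5.27 to 0.55 kb in shRNA-Ctrl replicates 2 and 3, and from -5.02 to 1.87 kb in shRNA-cFos replicate 1. In shRNA-cFos E1 replicate 2 adjoining peaks ran from -4.79 to -1.54 kb and from -1.53 to 1.76 kb, while in shRNA-Ctrl E1 replicate 1 the peak began at -1.28 kb.

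The merged Arc start region (chromosome 15, 74497730 to 74504869) was covered over 609, 592 and 665 bp in shRNA-Ctrl E0 and 782, 911 and 670 bp in shRNA-cFos E0. It was covered over 2580, 5268 and 5823 bp in shRNA-Ctrl E1 and 6891 and 6547 bp in shRNA-cFos E1. The states did not overlap (difference 4933 bp, exact permutation p = 0.005, adjusted p = 0.33 over 128823 regions). Such separation was found in 1.32% of the 11796 regions called in all 11 libraries. At equal length the difference was 3140 bp (exact permutation p = 0.04), since shRNA-cFos E1 replicate 2 then lost both of its peaks there, whose scores were 55.65 and 71.22.

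A second Arc region stood at 6.1 to 7.2 kb, upstream of the gene (chromosome 15, 74509081 to 74510192). Arc is known to have an activity-responsive enhancer several kilobases upstream that binds CREB, MEF2 and SRF; whether this region is that element was not tested. It was called in no shRNA-Ctrl E0 library and in all 8 others. Its equal-length percentiles were 21.2, 10.5 and 13.6 in shRNA-cFos E0, 50.1, 90.4 and 64.5 in shRNA-Ctrl E1, and 86.2 and 78.8 in shRNA-cFos E1. Every E1 library ranked it above every E0 library, by 67.8 points on average, a pattern found in 2.58% of regions. The region was named for its absence from shRNA-Ctrl E0, so this difference is a description without a test.

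A further pair of Arc regions was called at E1 alone. The region at -49.7 to -49.0 kb (chromosome 15, 74453296 to 74453991) had a peak in 5 of 5 E1 and 0 of 6 E0 libraries as deposited, and in 3 of 5 E1 libraries at equal length. The region at 9.1 to 10.0 kb (74512103 to 74512975) was called in 3 shRNA-Ctrl E1 libraries and 1 shRNA-cFos E1 library, and in none at equal length. Regions at 36.2 to 37.3 kb and 48.0 to 49.3 kb were called in all 11 libraries. The latter ranked lower at E1 by 17.6 points (exact permutation p = 0.01, adjusted p = 0.224), at 55.8, 45.9 and 38.3 in shRNA-Ctrl E1 and 62.1 and 64.2 in shRNA-cFos E1 against 64.2 to 83.4 in E0. As deposited it differed by -1.32 points (exact permutation p = 0.775). In GRCm38 the protein-coding genes Mroh4, Jrk, Psca and Them6 lie within 50 kb of Arc, so peaks in this window need not belong to Arc.

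**Figure D4:**
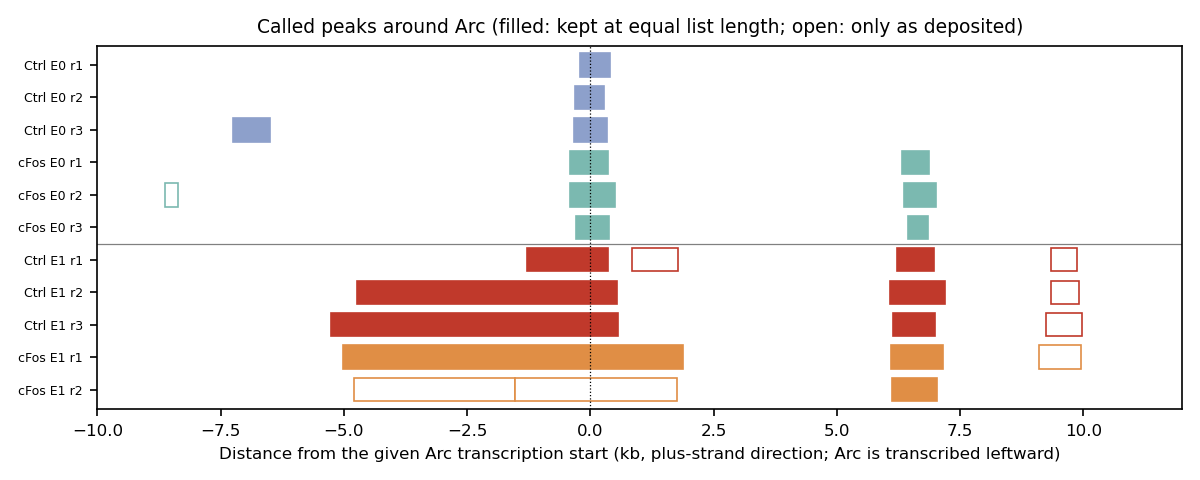
Peaks around Arc in the 11 libraries (rows), from -10 to 12 kb of the given start (x axis, kb), with filled boxes kept at equal length. The compact E0 peak at the start, the E1 peaks reaching to -5.27 kb and the upstream region at 6.1 to 7.2 kb can be followed row by row.

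The Nptx2 region at -1.7 to -0.6 kb, called in all 11 libraries, was also longer at E1. It was covered over 372, 438 and 525 bp in shRNA-Ctrl E0, 568, 531 and 345 bp in shRNA-cFos E0, 567, 1001 and 877 bp in shRNA-Ctrl E1, and 794 and 909 bp in shRNA-cFos E1. The states met within 1 bp (difference 370.1 bp, exact permutation p = 0.005, adjusted p = 0.33), and 7.62% of all regions were covered over a greater length at E1 at an unadjusted p under 0.05.

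At Nptx2, which has no protein-coding neighbour within 50 kb in GRCm38, the gained regions were distal or just upstream. The region at 47.3 to 48.1 kb (chromosome 5, 145355326 to 145356146) had peaks of 538, 663 and 751 bp in shRNA-Ctrl E1 and 622 and 611 bp in shRNA-cFos E1, and none in E0. Its equal-length percentiles in the same order were 22.8, 57.6, 63.9, 43.3 and 10.2 (mean difference from E0 37.4 points). The gained regions of Nptx2 and Inhba were named for being called at E1 alone, so their differences carry no test. A region at -4.2 to -3.6 kb (145303751 to 145304368) was also called in all 5 E1 libraries and no E0 library. Its scores of 50.3, 52.0 and 51.2 in shRNA-Ctrl E1 and 66.9 and 81.4 in shRNA-cFos E1 were near the lowest in the lists, and it was absent at equal length.

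Inhba, the activin subunit gene, gained a pair of regions to the left of the given start. At -7.2 to -5.7 kb (chromosome 13, 16098814 to 16100335) all 5 E1 libraries and no E0 library had a peak, as deposited and at equal length. Its equal-length percentiles were 15.6, 24.9 and 11.7 in shRNA-Ctrl E1 and 39.0 and 3.64 in shRNA-cFos E1 (mean difference from E0 19.4 points). At -34.8 to -34.0 kb (16071210 to 16071976) all 5 E1 libraries had a peak, and so did shRNA-cFos E0 replicate 2 as deposited. At equal length that E0 peak fell away, and E1 percentiles were 58.9, 58.9 and 45.0 with shRNA-Ctrl and 9.65 and 63.1 with shRNA-cFos (mean difference from E0 45.3 points).

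In no distal region of Homer1 or Ptgs2 did all E1 libraries exceed all E0 libraries, and those described here were chosen after their values were seen. The Homer1 region at 26.6 to 27.2 kb (chromosome 13, 94100573 to 94101237) was called in 2 shRNA-Ctrl E1, 2 shRNA-cFos E1 and 1 shRNA-cFos E0 libraries. The Ptgs2 region at -11.0 to -10.2 kb (chromosome 1, 151935995 to 151936799) was called in 2 libraries of each of the 4 groups, without a difference in rank (0.248 points, exact permutation p = 0.965). The Ptgs2 region at -40.9 to -39.9 kb was called in 4 of 5 E1 libraries and in shRNA-cFos E0 replicate 2. At equal length it was called in 3 of 5 E1 libraries and no E0 library (mean difference 14.8 points).

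**Figure D5:**
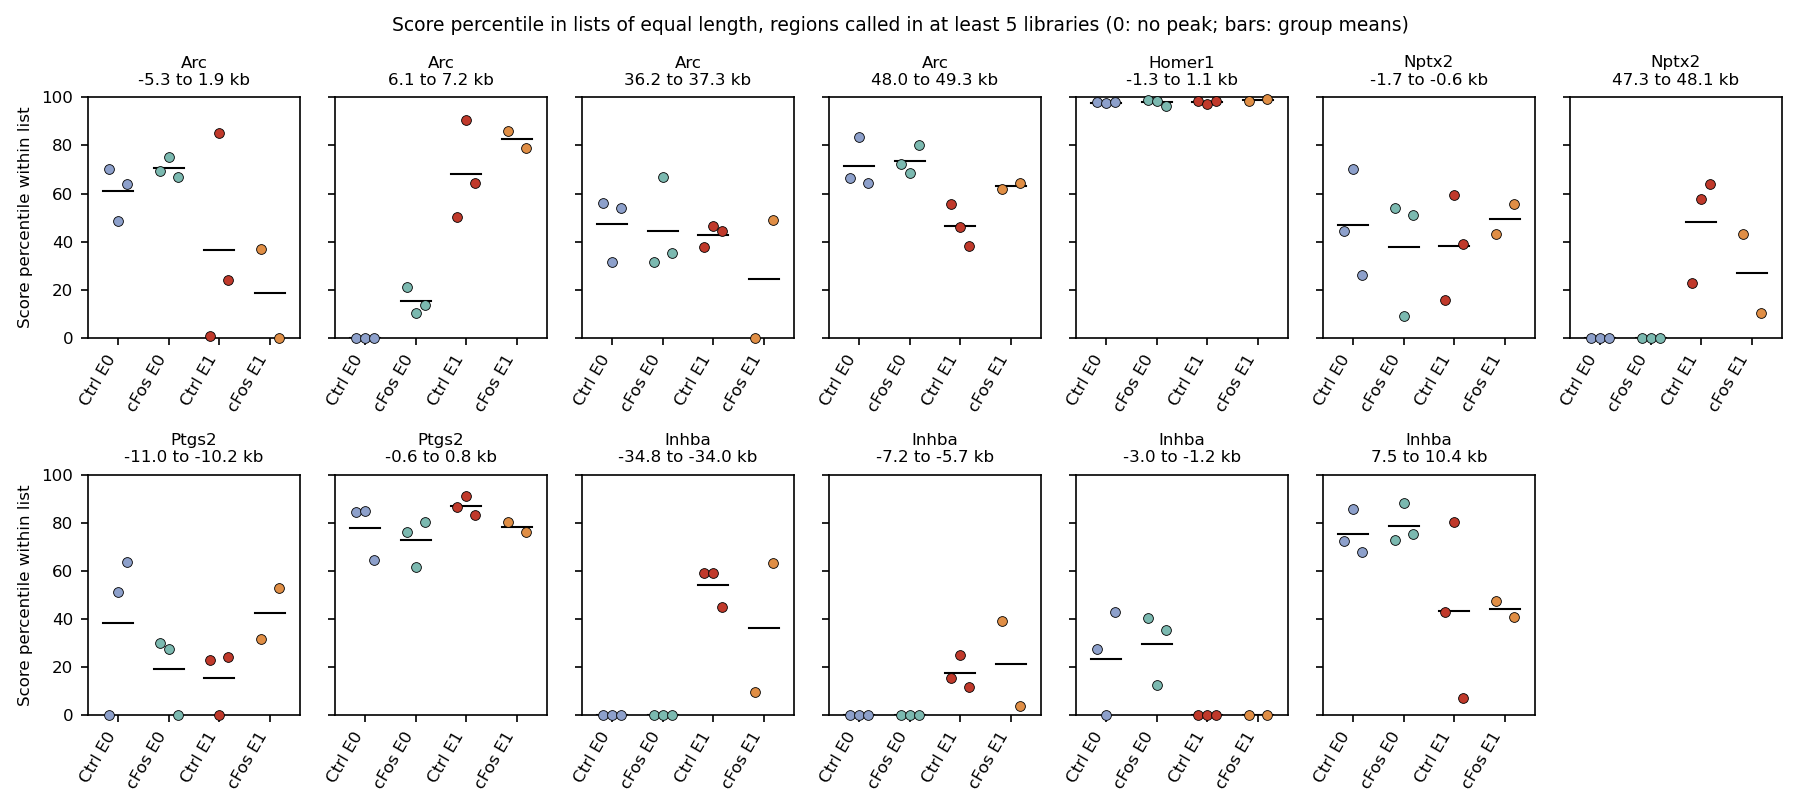
Score percentile within lists of equal length (y axis, 0 where no peak was called) by group (x axis) for the 13 regions called in at least 5 libraries at equal length. Points are libraries and bars are group means. The Homer1 start stays between 96.6 and 99.3, and the Arc region at 6.1 to 7.2 kb rises from at most 21.2 in E0 to at least 50.1 in E1.

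Counted over the 5 windows as deposited, 7 of 45 regions (15.6%) had a peak in 3 of 3 E1 libraries with shRNA-Ctrl and in 0 of 3 E0 libraries, against 6.04% of all regions. The 7 were the 3 Arc regions at -49.7, 6.1 and 9.1 kb and the pairs at Nptx2 and Inhba. Both shRNA-cFos E1 libraries and no shRNA-cFos E0 library called 4 of 45 (8.89%), against 1.96%. The same 4 were called in all 5 E1 libraries and no E0 library, against 0.857% of all regions: Arc at -49.7 kb, Nptx2 at -4.2 and 47.3 kb, and Inhba at -7.2 kb. The reverse pattern was found for 0 of 45 regions with either shRNA, against 0.0442% (shRNA-Ctrl) and 0.548% (shRNA-cFos) of all regions.

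At equal length the windows held 23 regions, and 5 of them (21.7%) recurred in 11 of 11 libraries (background 16.4%). Of the 23, 4 (17.4%) were found only at E1 with shRNA-Ctrl (background 3.51%) and 4 (17.4%) with shRNA-cFos (background 3.39%). The 3 (13%) found in all 5 E1 libraries and no E0 library (background 0.963%) were Nptx2 at 47.3 kb and Inhba at -34.8 and -7.2 kb. With shRNA-cFos, the region at -3.0 to -1.2 kb from the Inhba start had a peak in 3 of 3 E0 libraries and 0 of 2 E1 libraries (background 1.54%). Single regions cannot reach an exact p below 0.1 within 1 shRNA group. These counts therefore carry no test.

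The knockdown comparison asks whether the c-Fos shRNA changed these loci. Averaged over E0 and E1, the difference in peak number, cFos minus Ctrl, ran from -0.5 at Homer1 to 0.417 at Ptgs2, and no window differed at an exact p under 0.05 (exact permutation p from 0.55 to 0.96). Tiles passed in 0.348% (higher) and 0.103% (lower) of cases. In covered length the nearest to the threshold was Arc, with 2019 bp more with shRNA-cFos (exact permutation p = 0.05), a difference that shrank to 77.7 bp at equal length (p = 0.935).

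The regions with a greater covered length with shRNA-cFos at an unadjusted p under 0.05 lay in the Arc window. Their share of the 45 regions was near the 3.52% of all regions that did so. The Arc window held 11 of the 45 regions, and whether the difference was particular to Arc was not tested. The upstream Arc region at 6.1 to 7.2 kb had peaks of 532, 635 and 400 bp in the 3 shRNA-cFos E0 libraries and none in the 3 shRNA-Ctrl E0 libraries, also at equal length. It was the only region with that pattern, 1 of 45 as deposited (2.22%, background 1.11%) and 1 of 23 at equal length (4.35%, background 0.960%). Over both states its covered length was 304.9 bp greater with shRNA-cFos, and its percentile 14.6 points higher at equal length and 22.9 points higher as deposited. The region was named for its absence from shRNA-Ctrl E0, so these differences are a description without a test.

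The Arc region at 48.0 to 49.3 kb, called in all 11 libraries, was also longer with shRNA-cFos. It was covered over 1143, 1198 and 1047 bp in shRNA-cFos E0 and 1304 and 1193 bp in shRNA-cFos E1, against 902, 762 and 558 bp in shRNA-Ctrl E0 and 747, 632 and 1083 bp in shRNA-Ctrl E1. The shRNAs did not overlap at E0 or at E1, and the difference was 408.2 bp (exact permutation p = 0.01, adjusted p = 1 as deposited and 0.706 at equal length). Of the 45 regions, these 2 had a greater covered length with shRNA-cFos at an unadjusted p under 0.05. That is near the 3.52% of all regions that did. The upstream region is in this count although its absence from shRNA-Ctrl E0 was the reason it was named. Counting calls at E1, no region of the 45 had a peak in all 3 shRNA-Ctrl libraries and in neither shRNA-cFos library (background 1.59%), nor the other way round (background 0.534%).

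Whether the E1 difference depended on the shRNA was tested directly. For peak number, the E1 effect with the c-Fos hairpin less the effect with the control was -0.667 at Arc (exact permutation p = 0.785), -0.833 at Nptx2 (p = 0.67), -2.83 at Inhba (p = 0.325), -2.33 at Homer1 (p = 0.215) and -0.5 at Ptgs2 (p = 0.86). None passed, where 2.02% of tiles had a smaller effect with shRNA-cFos at an exact p under 0.05. At equal length, and in covered length with either list version, no window passed either. With 2 to 3 mice a group this does not show that the effects were alike.

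Among single regions, the score percentile of the Arc start moved differently with the shRNAs in the lists as deposited. It was 70.1, 54.5 and 69.5 in shRNA-Ctrl E0 and 68.1, 89.6 and 74.8 in shRNA-Ctrl E1, but 76.8, 91.7 and 70.6 in shRNA-cFos E0 and 67.2 and 27.6 in shRNA-cFos E1. The E1 effect was 45.1 points lower with the c-Fos hairpin (a difference of -45.1, exact permutation p = 0.015, adjusted p = 1). Such a smaller effect was found for 1.28% of regions. At equal length the difference was -27.7 (exact permutation p = 0.52). Without shRNA-cFos E1 replicate 2, whose start was split into adjoining peaks, it was -25.4 (exact permutation p = 0.113), and without any 1 of the shRNA-cFos E0 libraries that p was 0.05.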

How the data were processed

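Peak lists of ATAC-seq libraries, 1 per mouse, were analysed. The authors deposited, per peak, a position and a score on an unstated scale (50 to 3100 in every list). Bowtie2 and mm9 are named in the submitters' processing notes, and peak names carry MACS; caller settings and read filtering are not given in the sources used here, and read depth is unknown. Scores served for ranking inside 1 list.

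Peaks on chromosomes 1 to 19 and X were kept (554 left out). Peaks sharing at least 1 bp over the 11 lists were merged into regions. For equal length, each list was cut to its 25145 highest scores. Window values and region percentiles (0 without a peak) were compared by two-sided exact permutation tests, E0 and E1 labels within shRNA (200 arrangements) or shRNA labels within state. P-values were adjusted (Benjamini-Hochberg) over all 100 kb tiles with a peak, or over all regions. Regions named by position were the one at each start, those called in at least 9 of 11 libraries, and those found only in one state; the distal Homer1 and Ptgs2 regions fall outside this rule where the text says they were chosen after their values were seen. No lists were duplicates: at most 0.0318% of peaks were identical in 2 lists.

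The members and lists were chosen with earlier results of these data known. The covered length and percentile tests of single regions, and the fits without the 3 longest lists or on the 9 lists with the added word, were chosen after seeing the data. Code was tested on simulated data. Without an mm9 annotation, other activity-regulated genes, neighbours' promoters and markers were not located. Python 3.11.15, numpy 2.4.6, pandas 2.3.3 and matplotlib 3.10.9 were used.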

Additional observations from a re-analysis of the deposited data

Results flagged for a closer look

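The E1 effect on the score percentile of the Arc start differed between the shRNAs in the lists as deposited, by -45.1 points, cFos minus Ctrl (exact permutation p = 0.015 and adjusted p = 1 over all regions). The difference itself was tested. Mean percentiles were 64.7 at E0 and 77.5 at E1 with shRNA-Ctrl, and 79.7 and 47.4 with shRNA-cFos. At equal list length the difference was -27.7 (exact permutation p = 0.52), with a replicate block p was 0.0625, and without 1 library it ranged from -64.9 to -25.4 (p from 0.01 to 0.113).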

How the results depend on the processing

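Across the 10 counts, 126 of 156 alternatives stayed within 1.5 times the reported value, and across 21 single-gene values 305 of 385 kept direction and side of the threshold. The 126 include counts of 0 that stayed 0. These were all 19 for each contrast of window peaks between shRNAs, and 13 of 13 and 10 of 12 for E0-only regions with shRNA-Ctrl and shRNA-cFos. For the number of windows with a changed score percentile at the start, 4 of 17 alternatives stayed. Where values moved, the cause was not tested. The number of windows with more peaks at E1 (3) was 1 at equal length, 5 by covered base pairs at equal length and 1 on the 9 lists with the added word, and 2 to 4 without 1 library. With a replicate block it was 2, since Inhba had p = 0.0625 (exact permutation). The number of windows with a changed score percentile at the start (2, Arc and Nptx2) was 1 with the replicate block, 1 without the 3 longest lists, 1 on the 9 lists, and 1 to 2 without 1 library. The Nptx2 value (43.8 points at 1 kb) rests on the 1 kb limit and was 1.29 at 2 kb. At 2 kb Inhba passed in place of Nptx2 (-25.4 points, exact permutation p = 0.04). Both windows that passed at 2 kb, Arc and Inhba, were lower at E1. For the lists as deposited the count was again 2, but Nptx2 and Ptgs2 (8.97 points, p = 0.015, exact permutation) in place of Arc. Start peaks numbered 34 to 36 without 1 library and 52 at 2 kb.

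Regions found only at E1 with shRNA-Ctrl (7) were 4 at equal length, 4 with a score of at least 100, 4 within 25 kb, and 7 to 13 without 1 library, the highest without shRNA-Ctrl E1 replicate 2. With shRNA-cFos (4) they were 1 with a score of at least 100, 2 within 25 kb, 7 without the 3 longest lists, and 4 to 8 without 1 library (7 without E0 replicate 2, 7 and 8 without E1 replicates 1 and 2). With both shRNAs (4) they were 1 with a score of at least 100 and 2 within 25 kb. Regions found only at E0 with shRNA-cFos (0) were 1 at equal length and 0 to 1 without 1 library.

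Differences between shRNAs, none past the threshold, changed sign in places. At equal length cFos minus Ctrl was -0.583 at Arc and 0.0833 at Homer1, and with a score of at least 100 it was -1.33 and 0.25. Within 25 kb Ptgs2 had -0.167. Covered base pairs gave 14.7 at Homer1 and 447.8 at Inhba, and 210.1 and 536.9 at equal length. Without the 3 longest lists Nptx2 had 0.25 and Inhba 0.417, and on the 9 lists Homer1 had 0.333, Nptx2 0.25 and Inhba 0.917. Without 1 library Ptgs2 ranged from -0.417 to 1.08 and Inhba from -0.583 to 0.417.

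The difference of E1 effects was 0.167 at Homer1 and 0.667 at Ptgs2 at equal length, 0.5 and 0.333 with a score of at least 100, 0.333 at Ptgs2 within 25 kb, 1929 at Arc by covered base pairs, and 68.2 at Homer1 and 430.2 at Ptgs2 by covered base pairs at equal length. Without the 3 longest lists it was 1 at Arc, 0.5 at Nptx2, 4 at Ptgs2 and 0.167 at Inhba, and on the 9 lists 0.333 at Arc, 0.5 at Nptx2 and 2.83 at Ptgs2. Without 1 library Ptgs2 ranged from -2.17 to 0.833.

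Same-numbered libraries did not deviate together (correlations over tiles from -0.1 to 0.1 in 10 pairs), so replicate numbers were not taken to pair mice. Read depth is unknown, and a region without a peak has no known limit of detection.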

Other observations

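At the Arc start, length and rank moved in opposite directions at equal list length. While the covered length rose at E1, the equal-length score percentile of the start region fell by 38.2 points (exact permutation p = 0.035, adjusted p = 0.37). It was 70.1, 48.7 and 64.1 in shRNA-Ctrl E0, 69.4, 75.4 and 66.8 in shRNA-cFos E0, 0.636, 85.3 and 24.0 in shRNA-Ctrl E1, and 36.9 and 0 in shRNA-cFos E1. Without the 3 longest lists the difference was -12.7 (exact permutation p = 0.458), and it kept its call when shRNA-Ctrl E1 replicate 2 was left out but not when any other library was. For the lists as deposited it was -9.76 (exact permutation p = 0.525), an average of a mean percentile of 64.7 at E0 and 77.5 at E1 with shRNA-Ctrl, and of 79.7 and 47.4 with shRNA-cFos.

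Left of the Inhba start, a region at -3.0 to -1.2 kb (chromosome 13, 16102990 to 16104772) was called in 5 of 6 E0 libraries and in 0 of 5 E1 libraries at equal length (mean difference -26.5 points, with no test, since the region was named for this pattern). As deposited the pattern was not there: the merged region at -4.3 to -1.2 kb was called in 5 of 6 E0 and 3 of 5 E1 libraries, and it was longest in E1, at 2966 bp in shRNA-Ctrl E1 replicate 1 and 2824 bp in shRNA-cFos E1 replicate 2. Its E1 scores stood at percentiles 49.6, 8.15 and 36.2 of their lists as deposited.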
